A study of Mus musculus with 18 samples.

Results

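Cardiac macrophages are the phagocytes that live in heart muscle, and 10 genes expressed by them were followed through cold storage of the mouse donor heart. The genes were Adgre1, Csf1r, Cd68, Cd163, Mrc1, Lyve1, Cx3cr1, Ccr2, Lyz2 and Folr2. They were chosen by name and not by a rule on a measured value, but with earlier results of these data known. All 10 were found among the 34989 genes to which the transcript counts were summed.

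The study stored hearts of C57B/L6 mice in ice-cold HTK, a histidine-tryptophan-ketoglutarate preservation solution, for 0, 4 or 8 h. Each heart was infused with HTK before storage and was perfused outside the body for 1 h in Krebs buffer after it, the 0 h hearts included. The left ventricle (LV) and right ventricle (RV) were then sequenced, which gave 6 groups of 3 libraries each: LV 0 h, LV 4 h, LV 8 h, RV 0 h, RV 4 h and RV 8 h. The labels give an age of 12 weeks for every group, the study's methods give a younger age, and the sex behind each library is not given in the sources used here. No genotype or drug separated the groups. Estimated counts per library ran from 22552581 to 46236771. Replicates are separately labelled samples, and no source states that each replicate number was a separate animal, so the p values below measure the spread between these samples.

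Heart muscle holds macrophages that settled before birth and renew themselves in place, often marked by LYVE1, FOLR2 and TIMD4, beside others that derive from CCR2-bearing blood monocytes. Both depend on the receptor CSF1R for survival. They clear dying cells and debris, take up material through scavenger receptors, and sense damage to the tissue.

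The libraries carried the marks of heart muscle with macrophages in it. In TPM, transcript levels corrected for length and scaled to 1 total per library, the cardiomyocyte gene Myh6 averaged 10785.5 over the 18 libraries. The macrophage complement genes C1qa, C1qb and C1qc averaged 44.7, 49.0 and 31.2 TPM, the phosphatidylserine receptor Timd4 averaged 2.07 TPM and the engulfment receptor Mertk averaged 2.95 TPM. Each of the 10 members had counts in each of the 18 libraries, from 6 for Cx3cr1 upwards. In whole ventricle, fewer macrophages and less of an RNA per macrophage cannot be told apart, and Lyve1 and Mrc1 are also expressed by lymphatic endothelium and Lyz2 by neutrophils and monocytes.

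The members spanned a wide range of levels. Lyz2, which encodes lysozyme, had the highest level per length in each of the 6 groups, with a mean of 112 TPM over the 18 libraries and a range of 61.0 to 182.9 TPM. A middle band followed, with Folr2 at a mean of 11.7 TPM, Csf1r at 11.2 TPM, Lyve1 at 10.3 TPM, Cd68 at 8.65 TPM, Mrc1 at 8.63 TPM, Cd163 at 7.48 TPM and Adgre1 at 5.69 TPM. The chemokine receptors Ccr2 and Cx3cr1 were lowest, at means of 0.402 and 0.356 TPM. Neighbours in the order of TPM overlapped in 7 of 9 cases in each group but RV 0 h, where 5 of 9 did. In RV 0 h, Folr2 lay clear above Cd163, and Mrc1 lay clear above Adgre1. Lyz2 stood clear of the next gene, and Ccr2 and Cx3cr1 stood clear below the others, in all 6 groups. The estimated counts behind Cx3cr1 were 6 to 68 per library and those behind Ccr2 were 15 to 130, against 115 or more for each other member.

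**Figure D1:**
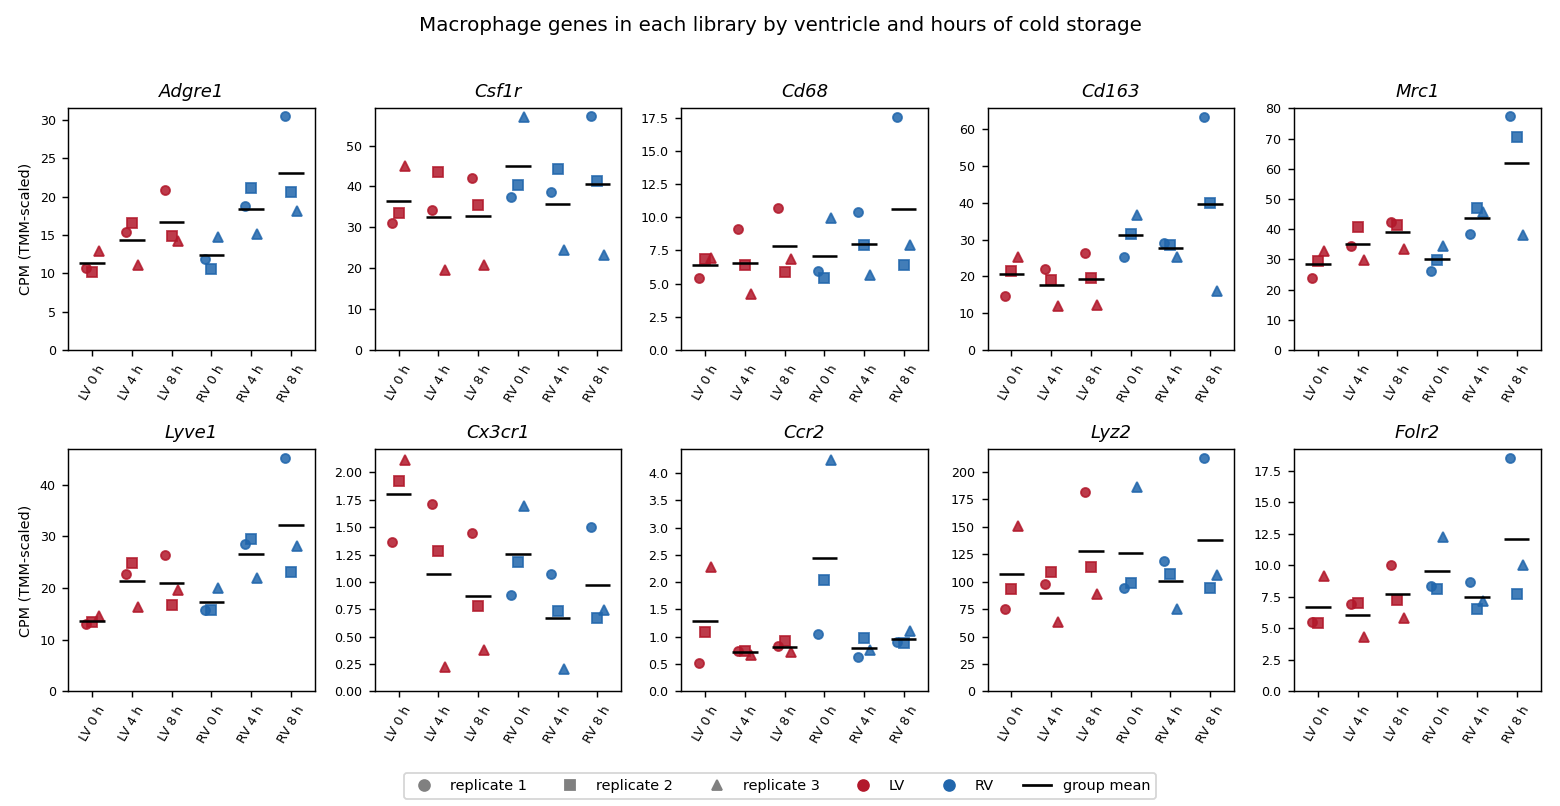
CPM, counts scaled to 1 library size with TMM, of each of the 10 members in each of the 18 libraries, by ventricle and hours of storage, with symbols for replicate numbers and a line at each group's mean. In RV, the 3 libraries stored for 8 h lie above the 3 libraries at 0 h for Adgre1, Mrc1 and Lyve1, while replicate 3 of RV 0 h is the highest library for Ccr2.

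Comparisons of storage times asked how the tissue changed with hours in the cold, and a gene was called when edgeR gave a Benjamini-Hochberg adjusted p under 0.1 with a fold change over 1.5. After 8 h in RV, 4 of 10 members were called: Adgre1, Mrc1 and Lyve1 rose and Ccr2 fell. There, 18.2% of the 14622 genes tested were called, with 12.97% higher and 5.26% lower, against 3 members higher and 1 lower. After 4 h in RV, 1 of 10 members was called, Ccr2, which fell, where 10.1% of genes were called and 3.91% were lower. With 10 members, 1 call after 4 h is near the share of all genes called, and neither count is a result about the list.

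In LV, edgeR called 0 of 10 members after 4 h, where 2.79% of the 14564 genes tested were called. There 1 member had an unadjusted p under 0.05, beside 15.6% of genes, and DESeq2 called 1, Lyve1, beside 4.01% of the 22769 genes it tested. After 8 h in LV edgeR called 0 of 10 members, where 6.72% of genes were called, while 3 members had an unadjusted p under 0.05, beside 23.3% of genes, and DESeq2 called 1, again Lyve1, beside 6.57%. Between 8 h and 4 h, edgeR called 0 of 10 members in LV, where 0% of genes were called, and 0 members passed an unadjusted p under 0.05, beside 8.10% of genes, or were called by DESeq2, beside 0.312%. The same comparison in RV also gave 0 of 10 members by edgeR, 0% of genes, 0 at an unadjusted p under 0.05, beside 6.57% of genes, and 0 by DESeq2, beside 0.189%. The median log2 fold change of the 10 members was 0.34 after 8 h in RV, beside -0.07 over all genes tested, and 0.24 in LV, beside -0.02. After 4 h the medians were -0.24 in RV, beside 0.0034 over all genes, and -0.15 in LV, beside -0.0044. For 8 h against 4 h the median was 0.42 in RV, beside 0.0136 over all genes, with 10 of 10 members above 0. In LV that median was 0.18, beside 0.0254, with 8 of 10 above 0. The 4 h and 8 h comparisons of a ventricle share the 3 libraries at 0 h.

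**Figure D2:**
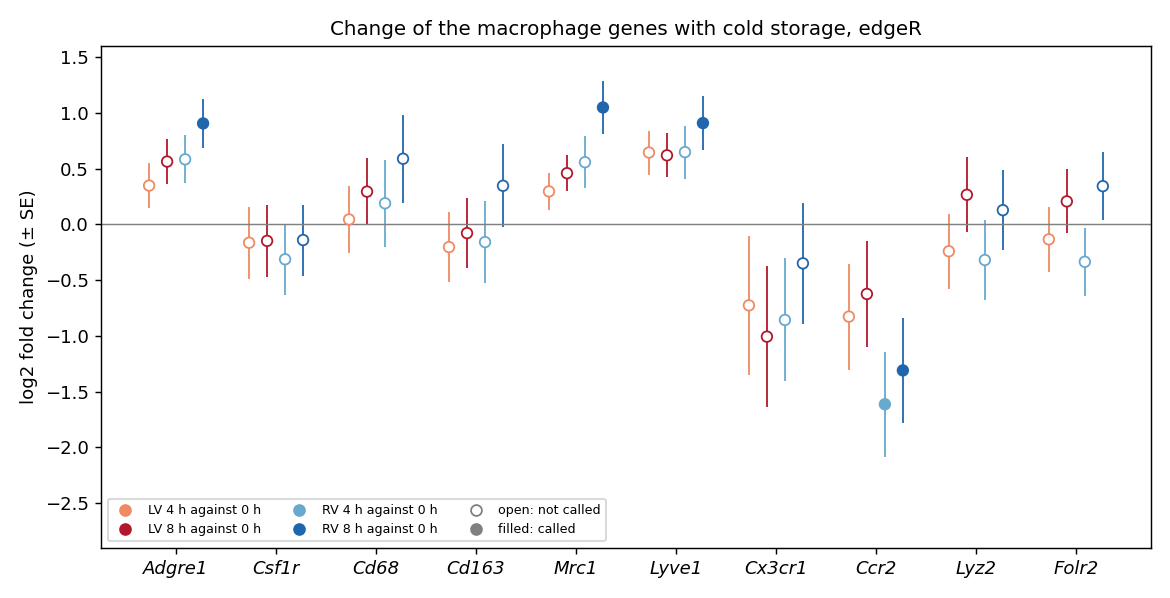
Log2 fold change of each member against 0 h with its standard error, from edgeR, for 4 h and 8 h of storage in LV and in RV. Filled points mark the 5 called values, which are Adgre1, Mrc1, Lyve1 and Ccr2 after 8 h and Ccr2 after 4 h, each in RV.

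The general macrophage genes begin with Adgre1, which encodes the surface protein F4/80 (ENSMUSG00000004730.15, chromosome 17, 57358691 to 57483527, plus strand). In RV its CPM was 11.8, 10.6 and 14.8 at 0 h, 18.8, 21.1 and 15.2 at 4 h, and 30.6, 20.6 and 18.1 at 8 h. Each library stored for 4 h or 8 h was above each library at 0 h, and replicate 1 stood highest at 8 h. After 8 h Adgre1 rose by a log2 fold change of 0.91 (SE 0.22, n = 3 against 3, adjusted p 0.0256 by edgeR), and over its 14 alternative fits the adjusted p ran from 0.0025 to 0.126. Without replicate 2 of RV 0 h the call was lost, with a log2 fold change of 0.80 and an adjusted p of 0.118. After 4 h the log2 fold change was 0.58 (SE 0.22, adjusted p 0.150), which was not called.

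Adgre1 CPM in LV was 10.7, 10.2 and 12.97 at 0 h, 15.5, 16.5 and 11.1 at 4 h, and 20.9, 14.8 and 14.2 at 8 h. The 3 libraries at 8 h were above the 3 at 0 h, whereas replicate 3 at 4 h was within the range at 0 h. After 8 h in LV Adgre1 had a log2 fold change of 0.56 (SE 0.20, adjusted p 0.146), and over its 14 alternatives the adjusted p ran from 0.0810 to 0.381. Without replicate 2 of LV 8 h it was called, with a log2 fold change of 0.67 and an adjusted p of 0.0906.

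Csf1r, the receptor for the growth factors CSF1 and IL-34 that macrophages need to survive (ENSMUSG00000024621.16, chromosome 18), was called in none of the storage comparisons by edgeR or DESeq2. Its CPM in RV was 37.4, 40.4 and 56.9 at 0 h and 57.4, 41.4 and 23.3 at 8 h. In LV it was 31.0, 33.6 and 44.9 at 0 h and 42.1, 35.6 and 20.8 at 8 h. The groups overlapped in both ventricles, and replicate 3 was the highest at 0 h and the lowest at 8 h. The log2 fold change after 8 h was -0.14 (SE 0.32, adjusted p 0.776) in RV and -0.15 (SE 0.32, adjusted p 0.803) in LV. Exons of Csf1r overlap those of Hmgxb3 on the other strand, and the share of its counts that could come from that gene was not tested.

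Cd68, a lysosomal membrane protein of phagocytes, and Lyz2 were also not called in these comparisons. Cd68 CPM in RV was 5.93, 5.42 and 9.96 at 0 h and 17.6, 6.40 and 7.93 at 8 h, so replicate 1 alone stood above the range at 0 h. Cd68 after 8 h had a log2 fold change of 0.59 (SE 0.39, adjusted p 0.317) in RV and 0.29 (SE 0.30, adjusted p 0.574) in LV. Lyz2 after 8 h had a log2 fold change of 0.13 (SE 0.36, adjusted p 0.823) in RV and 0.26 (SE 0.33, adjusted p 0.654) in LV. Its groups overlapped in each storage comparison.

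The scavenger and uptake receptors held the largest rise among the members. Mrc1 encodes the mannose receptor CD206, which binds sugars on microbes and on glycoproteins (ENSMUSG00000026712.3, chromosome 2, 14229392 to 14332057, plus strand). In RV its CPM was 26.0, 29.9 and 34.3 at 0 h, 38.4, 46.95 and 45.7 at 4 h, and 77.5, 70.5 and 38.0 at 8 h. All 6 stored libraries lay above the 3 at 0 h, and at 8 h replicates 1 and 2 stood far above replicate 3, which was close to the highest library at 0 h. After 8 h Mrc1 rose by a log2 fold change of 1.05 (SE 0.24, n = 3 against 3, adjusted p 0.0208 by edgeR). It was called in each of 6 fits that left out 1 library, with adjusted p from 0.0029 to 0.0915. With the stored RV libraries numbered 1 left out at both times, it was not called, at a log2 fold change of 0.87 and an adjusted p of 0.101. After 4 h the log2 fold change in RV was 0.56 (SE 0.24, adjusted p 0.207).

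Mrc1 CPM in LV was 23.7, 29.3 and 32.6 at 0 h, 34.4, 40.7 and 29.8 at 4 h, and 42.4, 41.4 and 33.6 at 8 h. The libraries at 8 h lay above those at 0 h, by a narrow margin in replicate 3. Their TPM overlapped, at 5.64, 7.50 and 8.05 at 0 h and 8.85, 8.40 and 6.66 at 8 h. After 8 h in LV Mrc1 had a log2 fold change of 0.46 (SE 0.16, adjusted p 0.143), under the fold asked for a call and not past the adjusted p.

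Lyve1 encodes a hyaluronan receptor of tissue-resident macrophages and of lymphatic endothelium (ENSMUSG00000030787.4, chromosome 7, 110850607 to 110863239, minus strand). In RV its CPM was 15.8, 15.8 and 20.05 at 0 h, 28.5, 29.6 and 21.99 at 4 h, and 45.2, 23.0 and 28.1 at 8 h. The stored libraries were above those at 0 h at both times, with replicate 1 highest at 8 h. After 8 h Lyve1 rose by a log2 fold change of 0.91 (SE 0.24, n = 3 against 3, adjusted p 0.0371 by edgeR), with adjusted p from 0.0059 to 0.150 over 14 alternatives. The call was lost without replicate 1 of RV 0 h (adjusted p 0.108), without replicate 2 of RV 0 h (adjusted p 0.142) and without replicate 1 of RV 8 h (log2 fold change 0.61, adjusted p 0.1003). On TPM the groups overlapped, at 8.77, 10.6 and 8.90 at 0 h and 20.3, 8.40 and 9.34 at 8 h, while DESeq2 with offsets for transcript length gave a log2 fold change of 0.80 and an adjusted p of 0.0821.

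Lyve1 CPM in LV was 13.1, 13.4 and 14.5 at 0 h, 22.8, 24.8 and 16.3 at 4 h, and 26.3, 16.7 and 19.7 at 8 h. Each stored library was above each library at 0 h. On TPM the libraries at 8 h overlapped those at 0 h, at 12.3, 7.64 and 6.78 against 5.88, 7.29 and 7.63. EdgeR gave a log2 fold change of 0.64 (SE 0.20, adjusted p 0.164) after 4 h and 0.62 (SE 0.20, adjusted p 0.116) after 8 h, neither called. DESeq2 called both, with adjusted p 0.0590 after 4 h and 0.0489 after 8 h, within ranges over 14 alternatives of 0.0475 to 0.452 and 0.0489 to 0.323. Without replicate 2 of LV 8 h, edgeR called it after 8 h at a log2 fold change of 0.79 and an adjusted p of 0.0489. After 4 h in RV the log2 fold change was 0.65 (SE 0.24, adjusted p 0.147 by edgeR), and DESeq2 called it at an adjusted p of 0.0996, in a range over 14 alternatives of 0.0933 to 0.377.

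Cd163, the receptor that clears complexes of haptoglobin and hemoglobin (ENSMUSG00000008845.9, chromosome 6), varied most between RV libraries after 8 h among the 10 members, with a coefficient of variation of 59.3%. Its CPM in RV was 25.4, 31.4 and 36.8 at 0 h, 29.1, 28.6 and 25.1 at 4 h, and 63.3, 39.8 and 16.2 at 8 h. At 8 h replicates 1 and 2 were above the range at 0 h and replicate 3 was below it. The log2 fold change after 8 h in RV was 0.35 (SE 0.37, adjusted p 0.527), not called. Without replicate 3 of RV 8 h it was called, at a log2 fold change of 0.73 and an adjusted p of 0.0767, and without replicate 1 of RV 8 h its direction turned, to a log2 fold change of -0.14 (adjusted p 0.795). Over 14 alternatives the adjusted p ran from 0.0649 to 0.815. In LV the log2 fold change after 8 h was -0.08 (SE 0.32, adjusted p 0.897).

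Folr2, a folate receptor of resident macrophages (ENSMUSG00000032725.10, chromosome 7), was not called in a storage comparison. In RV its CPM was 8.39, 8.09 and 12.2 at 0 h, 8.71, 6.57 and 7.13 at 4 h, and 18.5, 7.69 and 10.0 at 8 h, so that replicate 1 at 8 h alone was above the range at 0 h. After 8 h Folr2 had a log2 fold change of 0.34 (SE 0.30, adjusted p 0.442) in RV and 0.21 (SE 0.29, adjusted p 0.689) in LV.

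Ccr2, the receptor that draws monocytes toward the ligand CCL2 (ENSMUSG00000049103.14, chromosome 9, 124101950 to 124113557, plus strand), was the 1 member called lower. In RV its CPM was 1.05, 2.03 and 4.24 at 0 h, 0.633, 0.972 and 0.762 at 4 h, and 0.902, 0.889 and 1.11 at 8 h. The stored libraries lay close together, whereas those at 0 h spread widely with replicate 3 the highest. At 4 h all 3 libraries were below 0 h, and at 8 h replicate 3 was above replicate 1 of 0 h. Ccr2 fell by 1.61 on the log2 scale after 4 h (SE 0.47, n = 3 against 3, adjusted p 0.0797 by edgeR) and fell by 1.31 after 8 h (SE 0.47, adjusted p 0.0960).

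Both Ccr2 calls depended on which libraries were in the fit, although the direction held in each. After 4 h the call held without replicate 1 of RV 0 h (adjusted p 0.0257) and was lost in the other 5 of 6 fits that left out 1 library. Those fits gave an adjusted p of 0.179 without replicate 2 of RV 0 h, at a log2 fold change of -1.73, and 0.310 without replicate 3 of RV 0 h, where the log2 fold change was -0.95. Without replicates 1, 2 and 3 of RV 4 h the adjusted p was 0.232, 0.138 and 0.180, with log2 fold changes of -1.48, -1.78 and -1.60. After 8 h the call held without replicate 1 of RV 0 h (adjusted p 0.0334) and was lost without replicate 2 (0.175, log2 fold change -1.43) or replicate 3 of RV 0 h (0.312, log2 fold change -0.65). It was also lost without replicates 1, 2 and 3 of RV 8 h (adjusted p 0.199, 0.125 and 0.165, log2 fold changes -1.24, -1.26 and -1.43) and with DESeq2's size factors in edgeR (0.104), in a range over 14 alternatives of 0.0334 to 0.312.

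In LV, Ccr2 CPM was 0.516, 1.08 and 2.27 at 0 h, 0.746, 0.739 and 0.662 at 4 h, and 0.832, 0.915 and 0.718 at 8 h. The stored libraries lay inside the range at 0 h, and replicate 3 was the highest at 0 h here too. The log2 fold change was -0.83 (SE 0.47, adjusted p 0.453) after 4 h and -0.62 (SE 0.47, adjusted p 0.445) after 8 h.

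Cx3cr1, the receptor for fractalkine (ENSMUSG00000052336.7, chromosome 9), was not called. In RV its CPM was 0.877, 1.19 and 1.698 at 0 h, 1.07, 0.739 and 0.208 at 4 h, and 1.504, 0.667 and 0.741 at 8 h. In LV it was 1.36, 1.92 and 2.12 at 0 h, 1.71, 1.29 and 0.221 at 4 h, and 1.45, 0.780 and 0.383 at 8 h. The groups overlapped, with replicate 3 of each ventricle the highest at 0 h and the lowest at 4 h. After 8 h Cx3cr1 had a log2 fold change of -1.01 (SE 0.63, adjusted p 0.362) in LV and -0.35 (SE 0.55, adjusted p 0.666) in RV.

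Single libraries stood apart in the same way for most members. Replicate 3 was the highest of its group for 10 of 10 members in LV 0 h and for 10 of 10 in RV 0 h. After 4 h replicate 3 was the lowest for 10 of 10 members in LV and for 7 of 10 in RV, and after 8 h replicate 1 was the highest for 9 of 10 in each ventricle. No share over all genes is given beside these counts, and the members' values are not independent of each other. The counts describe the libraries and are not a result about the list. With the stored libraries numbered 1 left out at both times, an alternative chosen after seeing the data, edgeR called 0 of the 10 members in RV after 8 h, with log2 fold changes of 0.66 for Adgre1 (adjusted p 0.126), 0.87 for Mrc1 (0.101), 0.59 for Lyve1 (0.150) and -1.26 for Ccr2 (0.237). Each of these log2 fold changes was over the fold asked for. That fit held fewer libraries, and the share of all genes it called is not given here. Its count is therefore not a result about the members. The members' calls after 8 h in RV without 1 library numbered 1 to 4. The low end was the fit without replicate 2 of RV 0 h, which called Mrc1 alone, and the fit without replicate 1 of RV 8 h called 2, Adgre1 and Mrc1.

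The stored libraries numbered 1 also held the most hemoglobin RNA of their groups. The summed TPM of 5 erythroid markers was 15.8, 19.0 and 12.5 in LV 0 h, 233.6, 34.1 and 21.6 in LV 4 h, and 491.0, 27.9 and 69.9 in LV 8 h. In RV it was 18.5, 7.65 and 7.29 at 0 h, 269.1, 15.9 and 16.4 at 4 h, and 120.6, 9.51 and 63.9 at 8 h. The most abundant of the 5 was Hbb-bs, a beta globin, and no marker was at 0 in a whole group. EdgeR called 2 of the 5 higher after 8 h in LV, Hbb-bs and Hbb-bt, of 4 tested, and 0 in the other comparisons with 0 h. Over all genes tested in LV, 795 of 14564 were called higher after 8 h. In RV after 8 h the count ran from 0 to 4 without 1 library, with Hbb-bs and Hbb-bt called without replicate 2 of RV 8 h (adjusted p 0.0641 and 0.0647). With the replicate number as a block, 2 were called higher in RV after 4 h and 4 after 8 h. In LV after 8 h the log2 fold changes without the block were 3.90 (SE 1.17, adjusted p 0.0997) for Hbb-bs and 3.80 (SE 1.07, adjusted p 0.0851) for Hbb-bt. Both calls held in 1 of 6 fits without 1 library, the one without replicate 2 of LV 8 h, and were lost in the others, with adjusted p up to 0.298 and 0.274. The part of retained blood in the members' values was not tested.

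The share of counts from mitochondrial genes was higher in each library at 8 h than in those at 0 h of its ventricle. It was 31.98%, 34.4% and 33.4% in LV 8 h, against 24.1%, 26.0% and 28.3% in LV 0 h. In RV it was 34.2%, 33.6% and 33.3% at 8 h, against 22.7%, 26.5% and 32.6% at 0 h. At 4 h it lay within the range at 0 h, with 26.3%, 26.4% and 24.9% in LV and 26.1%, 27.7% and 26.9% in RV. Its part in the members' values was not tested.

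Comparisons of LV with RV at one storage time asked where the ventricles differed, and the members leaned toward RV. Without pairing, edgeR called 0 of 10 members at 0 h, where 0.159% of the 15093 genes tested were called, 0 of 10 at 4 h, where 0.0133% were, and 0 of 10 at 8 h, where 0.0331% were. At an unadjusted p under 0.05 the counts were 0 at 0 h, 0 at 4 h and 3 at 8 h, beside 3.21%, 2.96% and 11.1% of genes. DESeq2 called 0 members at each time, beside 0.253%, 0.0997% and 0.731% of genes. Leaving out replicate 3 of RV 8 h called 1 member at 8 h, Mrc1, at a log2 fold change of -0.91 and an adjusted p of 0.0875, in a range over 15 alternatives of 0.000168 to 0.871. LV and RV libraries of 1 storage time and number moved together over genes, with a lowest correlation of 0.559. They were therefore also fitted as pairs, called hearts here, although no source states the pairing. Libraries of the same number also correlated between 4 h and 8 h, at 0.514 or more in LV and 0.447 or more in RV. A heart had 1 storage time, so such correlations do not show that a pair came from 1 heart.

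Within these pairs most members were lower in LV. LV was the lower of the pair in 26 of 30 values at 0 h, 24 of 30 at 4 h and 27 of 30 at 8 h, counted over 10 members and 3 hearts, values that are not independent of each other. Over 12719 genes with a mean of at least 1 CPM, LV was the lower in 49.9% of values at 0 h, 49.7% at 4 h and 48.6% at 8 h. Lower in all 3 hearts were 8 members at 0 h, 6 at 4 h and 7 at 8 h, beside 21.4%, 22.5% and 24.8% of those genes. Higher in all 3 hearts was 1 member, Cx3cr1, at 0 h and again at 4 h, and 0 members at 8 h, beside 22.4%, 22.3% and 26.8% of those genes. With the pairs in the fit, edgeR called 2 of 10 members lower in LV at 0 h, Cd163 and Ccr2, where 1.01% of genes were called lower. At 4 h it called 1, Cd163, where 1.09% of genes were, and at 8 h it called 4, Cd163, Mrc1, Lyve1 and Folr2, where 6.53% of genes were. That fit also called markers of other cells. At 0 h 1 neutrophil marker, 1 mural marker and 2 other resident macrophage genes were called lower in LV, and at 4 h 1 MHC class II gene was called lower and 1 lymphocyte marker higher. At 8 h lower in LV were 4 monocyte markers, 2 neutrophil markers, 1 lymphocyte marker, 1 fibroblast marker and 1 lymphatic marker. The lymphatic marker was Pdpn (log2 fold change -1.02, adjusted p 0.00115). Higher in LV at 8 h were 1 monocyte marker, 2 neutrophil markers and 3 erythroid markers. Of the 15093 genes tested, 339 were called higher in LV at 8 h and 126 at 4 h. Of the macrophage lists it called at 8 h 3 of the CSF1R ligands and transcription factors, 3 ligands of CCR2 and CX3CR1 and 3 other resident macrophage genes lower in LV. The part of these cells in the members' differences between ventricles was not tested.

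**Figure D3:**
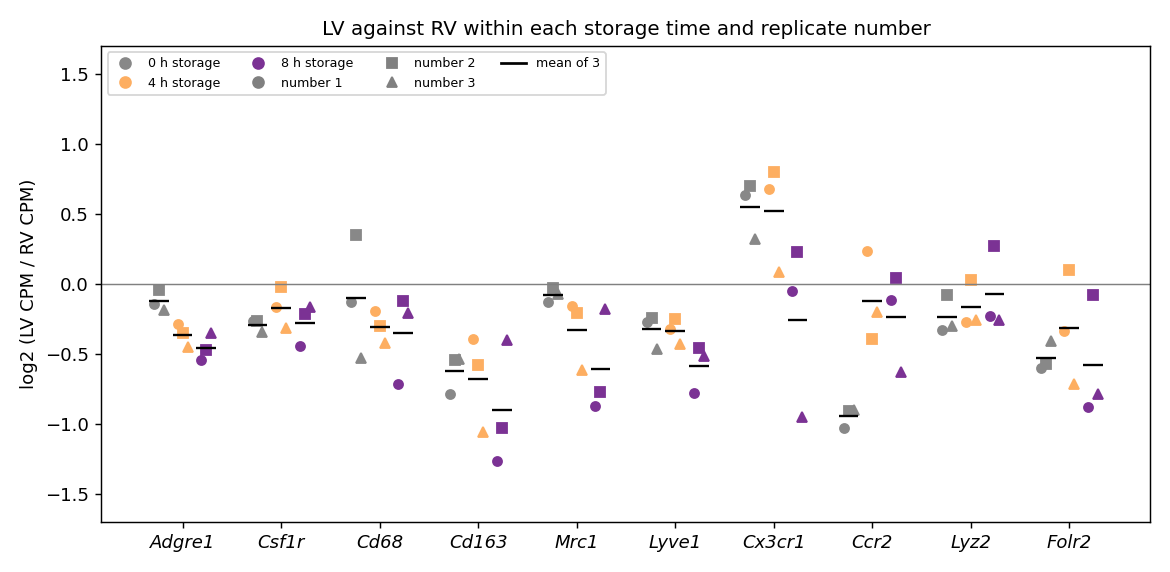
Log2 ratio of LV CPM to RV CPM for each member in each of the 3 pairs of libraries at 0, 4 and 8 h, with a line at the mean of 3. At 8 h, 27 of the 30 values lie below 0, and Adgre1, Csf1r, Cd163, Mrc1 and Lyve1 lie below 0 in all 9 pairs.

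Cd163 was the member called lower in LV by the paired fit at each storage time, while Adgre1, Csf1r, Mrc1 and Lyve1 were also lower in LV in all 9 pairs. Its log2 ratio of LV to RV within pairs was -0.79, -0.54 and -0.54 at 0 h, -0.39, -0.58 and -1.06 at 4 h, and -1.27, -1.03 and -0.40 at 8 h. For Cd163 the smallest ratio in size was in heart 1 at 4 h and the largest in heart 1 at 8 h. The paired fit gave -0.62 at 0 h (SE 0.15, adjusted p 0.0542), -0.66 at 4 h (SE 0.15, adjusted p 0.0445) and -0.94 at 8 h (SE 0.15, adjusted p 0.00173). Without pairing the adjusted p was 1.00 at 0 h, 1.00 at 4 h and 0.338 at 8 h. At 8 h the paired call held with any 1 heart left out, with adjusted p from 0.000115 to 0.0266. At 0 h it was lost with each of the 3 hearts left out (adjusted p 0.196 to 0.368), and at 4 h it held without heart 1 and was lost without hearts 2 and 3 (adjusted p up to 0.260).

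Mrc1, Lyve1 and Folr2 joined it at 8 h. The log2 ratios of Mrc1 at 8 h were -0.87, -0.77 and -0.18, and those of Lyve1 were -0.78, -0.46 and -0.52. Those of Folr2 were -0.88, -0.08 and -0.79, so 1 heart of 3 was near 0 for Mrc1 and for Folr2. The paired fit gave -0.62 for Mrc1 (SE 0.12, adjusted p 0.00507), -0.59 for Lyve1 (SE 0.08, adjusted p 0.000668) and -0.60 for Folr2 (SE 0.16, adjusted p 0.0215). With heart 1 left out these 3 were no longer called, with heart 2 left out Mrc1 was not called, and with heart 3 left out Folr2 was not called. Adjusted p over those fits reached 0.0569 for Mrc1, 0.0119 for Lyve1 and 0.191 for Folr2, so Lyve1 and Mrc1 lost their calls by the fold and not by the p. Adgre1 had a paired log2 fold change of -0.46 at 8 h (SE 0.07, adjusted p 0.00128) and was lower in LV in 3 of 3 hearts, under the fold asked for a call.

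Ccr2 was lower in LV in all 3 hearts at 0 h, with log2 ratios of -1.03, -0.91 and -0.90. The paired fit gave -0.94 (SE 0.20, adjusted p 0.0390), and the call was lost with any 1 of the 3 hearts left out, with adjusted p from 0.180 to 0.258 and log2 fold changes from -0.95 to -0.90. After storage the ratios were 0.24, -0.40 and -0.20 at 4 h and -0.12, 0.04 and -0.63 at 8 h, so the pairs no longer shared a direction.

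Whether storage acted differently on LV and RV was tested as the difference of the changes, LV minus RV. Without pairing, edgeR called 0 of 10 members at 4 h, where 0% of genes were called, and 0 of 10 at 8 h, where 0% were, with 0 members at an unadjusted p under 0.05 and 0 by DESeq2 at both times. Over all genes 1.05% at 4 h and 4.16% at 8 h had an unadjusted p under 0.05, and DESeq2 called 0% and 0.00831%. The calls in RV after 8 h are therefore not shown to differ from LV. There edgeR, fitted to all LV libraries without a block, called none of the same genes, while DESeq2 called Lyve1. The differences at 8 h were -0.34 for Adgre1, -0.59 for Mrc1, -0.29 for Lyve1 and 0.70 for Ccr2, each with an adjusted p of 1.00. With the pairs in the fit, 0 of 10 members were called at 4 h, where 0.305% of genes were, with 2 at an unadjusted p under 0.05, beside 8.90% of genes. At 8 h 0 of 10 were called, where 5.71% of genes were, with 4 at an unadjusted p under 0.05, beside 23.1% of genes. Adgre1 and Mrc1 passed the adjusted p there with folds under 1.5, at -0.33 (adjusted p 0.0745) and -0.54 (adjusted p 0.0904). In that fit 2 lymphatic markers were called in the same direction, Pdpn at -0.86 (adjusted p 0.0713) and Ccl21a at -0.77 (adjusted p 0.0729), as were Nr4a1, Cd3d, 2 of the CSF1R ligands and transcription factors and 2 ligands of CCR2 and CX3CR1. Their part in the members' differences was not tested.

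Several transcription factors of macrophages rose, and so did Csf1 in RV. The lists that follow stand beside all genes tested. Of 14564 in LV, edgeR called 349 higher and 58 lower after 4 h, and 795 and 183 after 8 h. Of 14622 in RV, it called 902 higher and 572 lower after 4 h, and 1896 and 769 after 8 h. Of 11 ligands of CSF1R and transcription factors, 4 rose in LV after 4 h, 4 in LV after 8 h, 5 in RV after 4 h and 7 in RV after 8 h, and 0 were called lower in any of these. Without 1 library the count ran from 1 to 5 in LV after 4 h and 2 to 6 in LV after 8 h. In RV it ran from 3 to 5 after 4 h and 4 to 7 after 8 h. The median log2 fold change in RV after 8 h was 1.03, beside -0.07 over all genes tested. Csf1, a ligand of CSF1R, rose by 2.20 (SE 0.57, adjusted p 0.0353), a call lost without replicate 2 of RV 0 h (adjusted p 0.139). Irf8 and Runx1, transcription factors of myeloid cells, rose by 2.79 (SE 0.38, adjusted p 0.00328) and 2.43 (SE 0.23, adjusted p 0.00102). Cebpb, a factor of the inflammatory response, rose by 1.73 (SE 0.23, adjusted p 0.00287). In LV after 8 h the same genes had log2 fold changes of 1.73 for Csf1, not called (adjusted p 0.101), 1.97 for Irf8, 1.65 for Runx1 and 1.29 for Cebpb. The LV call of Irf8 was lost without replicate 2 of LV 0 h, and that of Cebpb without replicates 2 and 3 of LV 0 h or replicate 3 of LV 8 h, with adjusted p up to 0.110 and 0.180.

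The ligands of CCR2 and CX3CR1 rose, while neither receptor was called higher. Of 5 ligands, 3 rose in LV after 4 h and all 5 in LV after 8 h, in RV after 4 h and in RV after 8 h. Their summed TPM in RV was 368.3, 125.9 and 82.3 at 0 h and 1090.4, 872.1 and 1047.7 at 8 h, with Ccl2 the most abundant, so the stored libraries stood clear above. In RV after 8 h Ccl8 rose by 3.14 (SE 0.53, adjusted p 0.0072), Ccl2 by 2.91 (SE 0.52, adjusted p 0.00877), Ccl12 by 2.89 (SE 0.47, adjusted p 0.00618) and Ccl7 by 2.62 (SE 0.46, adjusted p 0.0086). These are chemokines that attract monocytes. Each of the 4 was called in 6 of 6 fits without 1 library. After 4 h the count of 5 in RV and of 3 in LV fell to 0 in the lowest of 6 such fits, and after 8 h in LV the count ran from 1 to 5.

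Other genes of resident macrophages gave mixed values. Of 20, 1 rose in LV after 4 h, 2 in LV after 8 h, 2 in RV after 4 h and 4 in RV after 8 h, and 1 fell, Vsig4, a complement receptor, in RV after 4 h (log2 fold change -1.81, adjusted p 0.0424), where without 1 library 0 to 1 fell. Their median log2 fold change in RV after 8 h was 0.27, beside -0.07 over all genes tested, of which 12.97% were called higher. Without 1 library 1 to 5 of the 20 rose there and 1 to 6 in LV after 8 h. Cd14, a co-receptor for endotoxin, rose by 2.56 in RV (SE 0.25, adjusted p 0.00107) and by 2.09 in LV (SE 0.17, adjusted p 0.00199) after 8 h, called in 6 of 6 fits without 1 library in each. Timd4 rose by 1.05 in RV after 8 h (SE 0.25, adjusted p 0.0238), a call lost without replicate 2 of RV 0 h (adjusted p 0.105). C1qb rose by 0.82 (SE 0.27, adjusted p 0.0736) and Fcgr1, a receptor for IgG, by 2.81 (SE 0.93, adjusted p 0.0778), and each was called in 2 of 6 fits without 1 library. C1qb lost its call without replicates 1 and 2 of RV 0 h and replicates 1 and 3 of RV 8 h, and Fcgr1 without each library of RV 0 h and replicate 3 of RV 8 h, with adjusted p up to 0.236 and 0.258.

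Some of the genes shared by most myeloid cells rose in both ventricles. Of 14, 3 rose in LV after 4 h, 7 in LV after 8 h, 3 in RV after 4 h and 7 in RV after 8 h, with 0 lower, and after 8 h without 1 library 3 to 8 rose in LV and 4 to 9 in RV. In RV after 8 h, Cybb, a subunit of the phagocyte oxidase, rose by 1.97 (SE 0.18, adjusted p 0.000828), and Fcer1g, a signalling chain of Fc receptors, by 1.74 (SE 0.33, adjusted p 0.0106). Lcp1, an actin-bundling protein of leukocytes, rose by 1.72 (SE 0.15, adjusted p 0.000778), and Ptprc, which encodes CD45, by 1.35 (SE 0.17, adjusted p 0.00224). All 4 were called in 6 of 6 fits without 1 library in RV. In LV after 8 h Ptprc rose by 1.00 (SE 0.12, adjusted p 0.00586).

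Of 7 genes of MHC class II antigen presentation, 0 were called after 4 h in either ventricle by edgeR, 4 rose after 8 h in LV and 2 in RV. In LV after 8 h, Cd74, the invariant chain, rose by 1.00 (SE 0.16, adjusted p 0.0171), H2-Ab1 by 1.01 (SE 0.22, adjusted p 0.0416), H2-Eb1 by 0.82 (SE 0.21, adjusted p 0.0640) and H2-Aa by 0.79 (SE 0.16, adjusted p 0.0351). Without 1 library the LV count ran from 1 to 4 and the RV count from 0 to 1. In LV, H2-Ab1 lost its call without replicates 1 and 2 of LV 0 h (adjusted p up to 0.189) and H2-Aa without replicate 2 of LV 0 h (0.169). H2-Eb1 lost it without each library of LV 0 h and without replicate 1 of LV 8 h (adjusted p up to 0.248). In RV, H2-Ab1 (0.76, adjusted p 0.0934) lost its call without any 1 of the 6 libraries, and Cd74 (0.92, adjusted p 0.0486) without replicates 1 and 2 of RV 0 h and replicate 1 of RV 8 h, with adjusted p up to 0.271 and 0.178.

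Markers of blood leukocytes moved with storage as well. Of 13 neutrophil markers, 5 could be tested in LV and 3 in RV, and 1 rose in LV after 4 h, 3 in LV after 8 h, 1 in RV after 4 h and 1 in RV after 8 h. Without 1 library the count ran from 0 to 1 in LV after 4 h, 2 to 3 in LV after 8 h and 1 to 5 in RV after 8 h, where the highest count came from a fit that could test more of the list. Csf3r, the receptor for granulocyte growth factor and the most abundant of the list, rose by 2.88 in RV after 8 h (SE 0.37, adjusted p 0.00226). S100a8 and S100a9, calcium-binding proteins of neutrophils, rose by 6.89 (SE 1.01, adjusted p 0.0128) and 6.64 (SE 1.09, adjusted p 0.0189) in LV after 8 h, the latter call lost without replicate 2 of LV 0 h (adjusted p 0.108). The summed TPM of the 13 was 1.31, 1.61 and 1.76 in LV 0 h, 3.21, 5.29 and 7.16 in LV 4 h, and 42.6, 10.5 and 13.9 in LV 8 h. In RV it was 2.68, 1.73 and 2.75 at 0 h, 4.35, 5.06 and 6.57 at 4 h, and 16.8, 6.98 and 13.5 at 8 h. The defining marker Ly6g was at 0 in all libraries of each group but LV 8 h. Also at 0 throughout a group were Retnlg, Mmp8, Ngp, Mpo and Elane in LV 0 h, Elane in LV 4 h, Mmp8, Camp and Ngp in RV 0 h, Ngp and Elane in RV 4 h, and Elane in RV 8 h.

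Of 13 monocyte markers, 10 were tested, of which 0 rose in LV after 4 h and 4 in LV after 8 h. In RV 1 rose after 4 h, Nr4a1, which is not specific to monocytes, and 4 rose after 8 h. Without 1 library 0 to 5 rose and 0 to 1 fell in LV after 8 h. In RV such fits had 0 to 1 higher after 4 h and 3 to 6 after 8 h. Hp, which encodes haptoglobin, rose by 3.19 (SE 0.69, adjusted p 0.0172) and F10, which encodes coagulation factor X, by 2.21 (SE 0.47, adjusted p 0.0165) in RV after 8 h, both called in 6 of 6 fits without 1 library. Plac8 rose by 3.29 in RV (SE 1.08, adjusted p 0.0774), a call lost without replicates 1 and 3 of RV 0 h and replicate 3 of RV 8 h (adjusted p up to 0.264). With the stored libraries numbered 1 left out, the LV count after 8 h was 0. The summed TPM in RV was 330.0, 201.8 and 167.9 at 0 h and 267.1, 269.3 and 207.0 at 8 h, mostly from Nr4a1, an immediate-early gene of many cell types, so it overlapped. In LV it was 379.7, 261.5 and 218.0 at 0 h and 132.9, 129.8 and 189.8 at 8 h. None of the 13 was at 0 throughout a group. The part of blood monocytes and neutrophils in the members' values was not tested.

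Lymphatic endothelium shares Lyve1 and Mrc1, and its markers moved in part. Of 6, 1 rose in LV after 4 h, 1 in LV after 8 h, 1 in RV after 4 h and 3 in RV after 8 h, and without 1 library 1 to 3 rose after 8 h in each ventricle. Pdpn, the glycoprotein podoplanin, rose by 2.95 in RV (SE 0.33, adjusted p 0.00141) and by 2.03 in LV (SE 0.26, adjusted p 0.00845) after 8 h. Ccl21a, a chemokine of lymphatic vessels and the most abundant of the 6, rose by 1.23 in RV (SE 0.32, adjusted p 0.0350), and Flt4, the lymphatic VEGF receptor, by 1.37 (SE 0.43, adjusted p 0.0679). The call of Ccl21a was lost without replicates 1 and 2 of RV 0 h or replicate 1 of RV 8 h, and that of Flt4 without each library of RV 0 h or replicate 3 of RV 8 h, with adjusted p up to 0.139 and 0.213. The lineage factor Prox1 had a log2 fold change of -0.67 in RV after 8 h (adjusted p 0.209) and was not called, but with the replicate number as a block it was called lower, at -0.78 (adjusted p 0.0415). The summed TPM was 34.01, 36.4 and 38.8 in RV 0 h and 73.3, 43.7 and 60.6 in RV 8 h, so the stored libraries lay above, and 41.4, 44.7 and 43.1 in LV 0 h beside 51.2, 40.5 and 46.5 in LV 8 h, which overlapped. No marker of the 6 was at 0, and their part in the rise of Lyve1 and Mrc1 was not tested.

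Of 12 lymphocyte markers, 2 were tested in LV with 0 called by edgeR and 4 in RV with 1 called, Cd3d after 4 h, and their summed TPM in RV was 1.69, 1.496 and 1.31 at 0 h and 2.06, 1.49 and 4.15 at 4 h. At 8 h it was 1.95, 1.84 and 2.40, above each library at 0 h, and Cd3d was called there with the replicate number as a block (log2 fold change 1.82, adjusted p 0.0532) and not without it (1.71, adjusted p 0.135). After 4 h Cd3d rose by 2.25 (SE 0.70, adjusted p 0.0942), a call that held in 1 of 6 fits, the one without replicate 2 of RV 4 h, and Cd4 had a log2 fold change of -0.99 (adjusted p 0.191). Of 6 blood endothelial markers, 0 were called by edgeR against 0 h in either ventricle, with log2 fold changes after 8 h in RV of 0.31 for Fabp4 and 0.41 for Cdh5. Of 6 fibroblast markers, 1 rose, Tcf21, in RV after 8 h (log2 fold change 0.98, adjusted p 0.0453), called in 2 of 6 fits and lost without each library of RV 0 h and without replicate 1 of RV 8 h (adjusted p up to 0.133). The summed TPM of the fibroblast markers was 456.1, 487.2 and 411.9 in RV 0 h and 661.6, 373.7 and 391.2 in RV 8 h, which overlapped, with Dcn the most abundant.

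Of 5 mural cell markers, 2 fell in RV after 4 h, Kcnj8 and Pdgfrb, and 1 after 8 h, Kcnj8, a potassium channel of pericytes, which had log2 fold changes of -1.32 (adjusted p 0.0846) and -1.48 (adjusted p 0.0403). The 4 h call of Kcnj8 was lost in each of 6 fits without 1 library and the 8 h call without replicates 2 and 3 of RV 0 h or replicate 3 of RV 8 h (adjusted p up to 0.269 and 0.127). Their summed TPM was 262.6, 296.5 and 291.0 in RV 0 h and 295.9, 228.6 and 299.2 in RV 8 h, with Rgs5 the most abundant. Of 6 cardiomyocyte markers, 1 fell in LV after 8 h, Myh6 (log2 fold change -0.63, adjusted p 0.0410), lost without replicates 1 and 2 of LV 0 h or replicate 3 of LV 8 h (adjusted p up to 0.173). Their summed TPM was 49514, 40966 and 41195 in LV 0 h and 36292, 33265 and 33863 in LV 8 h, so the stored libraries lay below, with Myl2 the most abundant. In RV the sums were 49835, 40689 and 41146 at 0 h and 30290.4, 32036 and 26020.0 at 8 h, again with each stored library below. EdgeR called 0 of the 6 there, and their median log2 fold change was -0.43, beside -0.07 over all genes tested. Without 1 library 0 to 2 were called lower there, with Myh6 called without replicate 2 of RV 8 h, at a lowest adjusted p of 0.0520. With the replicate number as a block the calls in RV also moved in other lists. Of all 14622 genes tested, 2260 were called higher after 8 h with the block. After 4 h 1236 were called higher and 790 lower with it. After 8 h edgeR then called 8 of the CSF1R ligands and transcription factors, 8 broad myeloid genes, 5 monocyte markers, 2 neutrophil markers and 2 fibroblast markers higher. After 4 h it then called 3 other resident macrophage genes higher and 2 lower, 4 broad myeloid genes higher, 2 monocyte markers higher, and 2 lymphatic markers higher and 1 lower. No fibroblast, mural or cardiomyocyte marker was at 0, and the part of these cells in the members' values was not tested.

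Genes whose log2 CPM followed a member most closely over the 18 libraries were ranked among 12719 genes with a mean of at least 1 CPM, as a description. For Csf1r the 5 highest Pearson correlations were F13a1 at 0.925, Cd300ld at 0.915, Sirpa at 0.914, Rnase4 at 0.914 and Ankrd44 at 0.909. With each group's mean taken out, Cd300ld was at 0.939, so its likeness to Csf1r lay within the groups as well. For Lyve1 they were Pi15 at 0.943, Fcna at 0.923, Csf2ra at 0.921, Ecm1 at 0.906 and Ets1 at 0.904, with 0.853 for Pi15 after the group means were taken out. For Ccr2 they were Haus4 at 0.902, Pth1r at 0.898, Tbp at 0.887, Gpr160 at 0.886 and Cyp4f16 at 0.883, with 0.878 for Haus4 after the group means were taken out.

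Transcripts were also compared within the members. For 8 of the 10, 1 transcript held at least 86.7% of the gene's counts over the 18 libraries, as with Mrc1-201 at 97.7% and Lyve1-201 at 95.0%. Cd163 divided its counts between Cd163-201 at 71.4%, the retained-intron transcript Cd163-203 at 16.6% and Cd163-202 at 12.0%. Ccr2 divided its counts most evenly, with Ccr2-202 at 53.6%, Ccr2-201 at 19.2%, Ccr2-203 at 17.5% and Ccr2-204 at 9.77%. The share of Ccr2-202 ranged from 7.21% to 100% between libraries.

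Promoter windows from RefSeq on GRCm38.p6 were searched for GAGGAA, the core letters of the binding motif of PU.1, and its reverse complement TTCCTC, on both strands in the 250 bases before each gene's start as RefSeq gives it. RefSeq's start can differ from the GENCODE start, so the windows of Mrc1, Cx3cr1, Ccr2, Lyz2 and Folr2 run past the latter. Most of the Ccr2 window lies inside the GENCODE gene. The Cx3cr1 window and the Folr2 window at chr7:101845332-101845581 lie wholly inside theirs. Of the 10 members, 7 had a window, Cd68, Cd163, Mrc1, Cx3cr1, Ccr2, Lyz2 and Folr2, while Adgre1, Csf1r and Lyve1 had none in the table. The motif was in Mrc1, with 3 matches, and in Cd68, with 1, which is 2 of 8 member windows, and 23.3% of all 32851 windows held it. A match is a description of letters only. The windows of Mrc1 (chr2:14229164-14229413, plus strand) and Ccr2 (chr9:124101933-124102182, plus strand) are shown because these members held the largest rise and the fall in RV, with matches in capitals.
Mrc1: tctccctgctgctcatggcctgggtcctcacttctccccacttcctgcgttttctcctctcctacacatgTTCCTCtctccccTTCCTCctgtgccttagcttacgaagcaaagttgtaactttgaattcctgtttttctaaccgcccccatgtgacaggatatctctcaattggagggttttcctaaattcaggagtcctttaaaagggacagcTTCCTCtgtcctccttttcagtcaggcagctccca
Ccr2: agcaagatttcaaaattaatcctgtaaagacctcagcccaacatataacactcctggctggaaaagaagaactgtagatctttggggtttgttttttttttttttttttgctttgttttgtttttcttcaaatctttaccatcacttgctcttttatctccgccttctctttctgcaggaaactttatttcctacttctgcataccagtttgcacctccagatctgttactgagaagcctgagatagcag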

How the data were processed

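RNA of the left (LV) and right (RV) ventricle of mouse hearts was sequenced in 18 libraries, 3 for each of 6 groups of ventricle and storage time, with a directional library kit per the labels. The authors ran kallisto with default settings and deposited estimated counts (expected counts) per transcript, not normalized between libraries. The deposited files also give TPM, length-corrected transcript levels that the authors computed within each library, and transcript lengths and effective lengths in bases, per the file headers.

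Transcripts were assigned to genes with GENCODE M21 (GRCm38): 110203 of 111462 matched, and the 1259 without a match held at most 0.383% of a library's counts. Estimated counts were summed over each gene's transcripts and rounded, and TPM were summed. Library totals of 22552581 to 46236771 put the members with the fewest counts, Cx3cr1 and Ccr2, at 6 to 68 and 15 to 130 counts per library, where counting noise is largest.

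Tests used the edgeR quasi-likelihood method (edgeR 4.0.16, limma 3.58.1, R 4.3.3) with TMM scaling and filterByExpr, over all genes that passed the filter, with Benjamini-Hochberg adjustment over all genes tested. Calling a gene took a fold of more than 1.5 together with an adjusted p below 0.1. Storage times were compared in a fit of the 9 libraries of a ventricle, and ventricles, and the difference between ventricles in the change with storage, in a fit of all 18. The fits were tested on simulated data: the fits of storage times and of ventricles recovered most of the changes put in, and their bound for passing was lowered after a first result was seen. The paired fit of the difference between ventricles missed more changes than it recovered and was held to no such bound, so few calls there do not show a lack of difference.

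Alternatives were DESeq2's size factors in edgeR, no filter on low counts, DESeq2 1.42.0 with and without offsets for transcript length, an adjusted p under 0.05, other sets of libraries in the fit, each library left out in turn, and a replicate block. The block was the replicate number for storage times and, for ventricles, the LV and RV libraries of 1 storage time and number. Its use was read beside a result where libraries of the same number correlated above 0.1 over genes, which LV 0 h with LV 4 h (lowest 0.062) and LV 0 h with LV 8 h (lowest -0.042) did not. Chosen after seeing the data were leaving out the stored libraries numbered 1, leaving out those numbered 3, and the block with 1 heart left out.

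The members and the gene lists were chosen with earlier results of these data known. Companion lists were ligands of CSF1R with macrophage transcription factors, ligands of CCR2 and CX3CR1, other resident macrophage genes, broad myeloid genes, MHC class II genes, and markers of monocytes, neutrophils, lymphocytes, lymphatic endothelium, blood endothelium, fibroblasts, mural cells, cardiomyocytes and erythroid cells. Of each list, up to 4 genes called after 8 h in a ventricle with the largest log2 fold change were named, or the 2 with the highest mean TPM where none was called; 1 gene that this rule names is not reported here. Vsig4, Nr4a1, Pdgfrb and Prox1 were named after their values were seen. Genes of like pattern were the 5 with the highest correlation of log2 CPM, with a pseudocount of 1. Sequences came from RefSeq on GRCm38.p6.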

Additional observations from a re-analysis of the deposited data

Results flagged for a closer look

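In 2 members the difference between LV and RV in the change from 0 h to 8 h had an adjusted p under 0.1, when LV and RV libraries of the same storage time and number were fitted as pairs with edgeR. The difference, LV minus RV, was -0.33 for Adgre1 (adjusted p 0.0745) and -0.54 for Mrc1 (adjusted p 0.0904), so the change was smaller in LV, and neither was called because both were under the fold asked for. Without the pairs the adjusted p was 1.00 for each. With 1 heart left out of the paired fit, 5 of 6 fits gave an adjusted p over 0.1 for Adgre1 (0.110 to 0.220) and 5 of 6 for Mrc1 (0.169 to 0.265). The others were the fits without heart 3 of 8 h, at 0.0369 for Adgre1 and 0.0029 for Mrc1, which was called there at -0.75. Over the 24 alternatives the adjusted p ran from 0.0369 to 1.00 for Adgre1 and from 0.0029 to 1.00 for Mrc1. In the same fit 2 of 6 lymphatic markers, Pdpn and Ccl21a, were called in that direction, at -0.86 (adjusted p 0.0713) and -0.77 (adjusted p 0.0729). So were Nr4a1, Cd3d, 2 of the CSF1R ligands and transcription factors and 2 ligands of CCR2 and CX3CR1. Of all 15093 genes tested, 712 were called in that direction. Mrc1 is also expressed by lymphatic endothelium, whose part was not tested. The pairing is not stated by any source, and the cause of the difference was not tested.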

How the results depend on the processing

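Of 1770 values of single members under alternatives, 1716 kept their direction or stayed uncalled, 22 were no longer called, 32 became called and 0 called values changed direction. Of 1668 values that stayed uncalled, 142 changed sign.

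The number of members called moved as follows. After 4 h in LV, where 0 were called, DESeq2 gave 1, DESeq2 with length offsets 1, and leaving out the stored libraries numbered 3 gave 1. After 8 h in LV, also 0, the replicate block gave 1 (Lyve1, log2 fold change 0.60), DESeq2 1, DESeq2 with length offsets 1, and leaving out the stored libraries numbered 3 gave 2. After 4 h in RV, where 1 was called, DESeq2 gave 2, an adjusted p under 0.05 gave 0, leaving out the stored libraries numbered 1 gave 0, and leaving out those numbered 3 gave 2, Adgre1 and Lyve1, with Ccr2 no longer called. After 8 h in RV, where 4 were called, leaving out those numbered 1 gave 0, DESeq2's size factors gave 3, an adjusted p under 0.05 gave 3, and leaving out those numbered 3 gave 4, with Cd163 called and Ccr2 not. LV against RV, with 0 called at each time, gave 2 at 0 h, 1 at 4 h and 4 at 8 h with the block. With heart 1 left out of the block it gave 1 at 4 h, and at 8 h it gave 1, 3 and 3 with hearts 1, 2 and 3 left out. The ventricle difference at 8 h gave 1 in the block with heart 3 of 8 h left out. The block changed no other call of a member.

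Leaving out 1 library gave 0 to 2 calls after 8 h in LV, 0 to 1 after 4 h in RV, 1 to 4 after 8 h in RV, 0 to 1 for LV against RV at 8 h, and 0 to 0 in the other comparisons. A group left with 2 libraries shared the spread of the others. The shares of all genes called in the fits with libraries left out are not given here. The cause of these changes was not tested. With 3 libraries per group, single libraries decide several calls, and estimated counts of Ccr2 and Cx3cr1 are low. No alternative was left unrun.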
